A study of Mus musculus with 4 samples.

Results

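The nuclear genes for the subunits of the oxidative phosphorylation complexes were examined in mouse peritoneal macrophages exposed to 3 fatty acids. Members were chosen by symbol alone: the Nduf a, b, c, s and v series for complex I, Sdha to Sdhd for complex II, the Uqcr genes for complex III, the Cox4 to Cox8 genes for complex IV and the Atp5 genes for complex V, with pseudogene symbols left out. The rule found 81 of the 19938 genes that had a probe of exactly 1 gene, with 35 in complex I, 4 in complex II, 8 in complex III, 17 in complex IV and 17 in complex V. Of these, 77 were bright enough to be kept, among 11174 kept genes. The filter was one of brightness: at least 1 of the 4 values had to reach log2 7.09, the median of all values. All 77 lay at or above that level on all 4 arrays, so that none of them passed through a single array. The 4 members not kept were Cox6b2, Cox7b2, Cox8b and Ndufa4l2.

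The cells came from C57BL/6 mice of 8 to 12 weeks, 3 days after 1 mL of 4% thioglycolate had been injected into the peritoneal cavity, a treatment that draws macrophages there. Cells that did not adhere within 3 h were washed away. The remaining cells were kept for 6 h with 500 µM of a fatty acid bound to albumin from bovine serum (BSA), or with none. The acids were the saturated palmitic acid, with a chain of 16 carbons, and 2 unsaturated acids of 18 carbons, oleic acid with 1 double bond and linoleic acid with 2. The control is labelled as BSA only, while the protocol names an ethanol and KOH vehicle. All 4 groups share the strain, the thioglycolate and the culture. RNA of 3 samples was pooled for each array, and whether these samples came from separate mice is not said. There was 1 array per group, so that no spread between samples, no interval and no test could be had, and every difference given here is a difference between 2 arrays.

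Oxidative phosphorylation moves electrons from NADH and succinate to oxygen through complexes I to IV of the inner mitochondrial membrane, and complex V uses the resulting proton gradient to make ATP. Complexes I, III, IV and V are built from a few catalytic subunits and many small accessory ones. Most subunits are encoded in the nucleus, and a small set in mitochondrial DNA. In macrophages the balance between this pathway and glycolysis is known to shift with activation.

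As a whole, the subunit genes lay slightly lower in the palmitic acid array than in the control. The median difference over the 77 members was -0.13 in log2, a ratio of 0.916, beside 0.0006 over all 11174 kept genes. In that comparison 66 members lay below 0 and 11 above, while 49.9% of all kept genes lay below 0 and 50.1% above. The differences were small and close together, with an interquartile range of 0.115 among members. Members at least 1.2-fold lower numbered 5, beside a background of 8.72%, and 0 members were at least 1.2-fold higher, beside 12.1%. The members lower by 1.2-fold were thus 6.49% of 77, near the background, while their share below 0, 85.7%, was above it. With the quantile normalisation repeated, 11 members (14.3%) were lower by 1.2-fold beside 11.8% of all kept genes, and 1 (1.3%) by 1.5-fold beside 1.65%. At 1.5-fold there were 0 members either way, beside 2.17% higher and 1.41% lower among all kept genes.

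With oleic acid the members lay at the control level. Their median difference was 0.0026, beside 0.01 for all kept genes, with 35 below 0 and 42 above. The background was 44.6% below and 55.3% above, and the members were divided in like proportion. With linoleic acid their median lay between, at -0.06, beside 0.04 for all kept genes. Below 0 lay 57 members and above it 20, against backgrounds of 34.8% and 65.2%. The linoleic acid array had the highest median of all probes, 7.13 beside 7.09 in the control. Taken from the median of all kept genes, the member median was -0.10 with linoleic acid and -0.13 with palmitic acid. With linoleic acid 2 members, Uqcr11 and Atp5md, were at least 1.2-fold lower, beside 1.09% of kept genes, and 0 were that much higher, beside 3.23%. With oleic acid 0 members passed 1.2-fold, beside backgrounds of 4.02% higher and 2.53% lower. The 3 comparisons with the control share the control array, so that their directions are not independent.

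**Figure D1:**
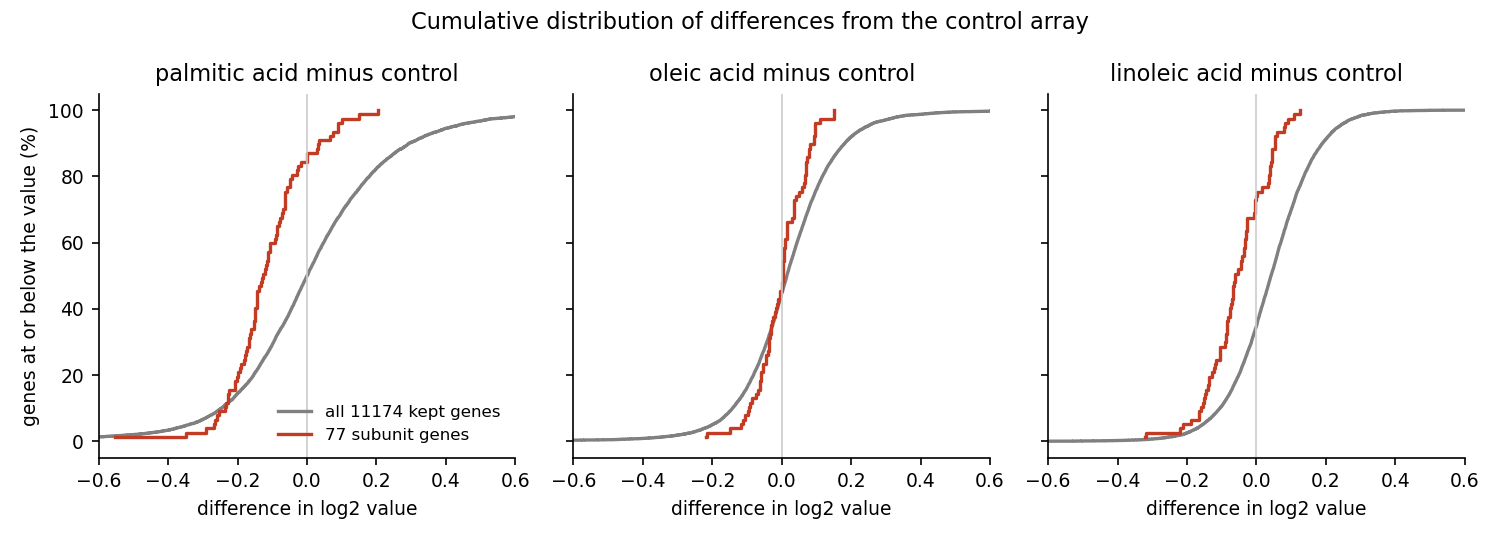
Cumulative share of genes (vertical axis, percent) at or below each difference in log2 value from the control array (horizontal axis), for the 77 subunit genes in red and all 11174 kept genes in grey, with a panel for each fatty acid. The red curve crosses 0 at a higher share than the grey one with palmitic and linoleic acid (66 and 57 of 77 genes below 0) and near it with oleic acid (35 of 77), and it is steeper in every panel.

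The same counts were taken over the order of the 4 arrays. The palmitic acid array held the lowest value for 53 of the 77 members, beside 38.1% of all kept genes. Oleic acid held the highest value for 33 members (background 26.9%) and the control for 26 (13.5%). Palmitic acid was the highest for 7 members, against 30.5% of kept genes. Members varied little over the arrays: the median range from lowest to highest was 0.17, beside 0.22 for all kept genes.

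Subunit genes were bright, with a median control value of 10.43 beside 8.87 for all kept genes. This is the brightness of probes and no measure of transcript amount between genes. The direction was therefore also counted among bright genes alone, those whose highest value reached the 90th percentile of all values. Of the 33 members in that class, 27 lay below 0 with palmitic acid, beside 43.9% of the 2172 genes. With linoleic acid 25 did, beside 32.7%, and with oleic acid 14, beside 48.5%. The lean of the members was present among bright genes as well as over all kept genes.

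Markers were read beside these values. All 10 macrophage markers were kept, and their summed level was 16.03 in log2 in the control, 15.99 under palmitic, 16.09 under oleic and 16.03 under linoleic acid. The labelled cell type was thus bright in every array. The sum does not show single markers, which moved both ways: with palmitic acid Fcgr1 lay at -0.66 and Mertk at 0.51. With oleic acid Fcgr1 lay at 0.65. Of 11 mesothelial and fibroblast markers 8 were kept. All 8 lay lower with palmitic acid than in the control, with a median of -0.25, beside 49.9% of all kept genes below 0. The summed level of all 11, kept or not, was 12.46 in the control, 12.05 under palmitic, 12.33 under oleic and 12.55 under linoleic acid. Lum was the dimmest of the 11, between 3.76 and 4.01, and was not kept. The part of these markers in the lower subunit values was not tested. Of the markers of other leukocytes, 1 was kept for each of neutrophils, mast cells, eosinophils, B cells and T or NK cells, and 2 for dendritic cells. In such bulk RNA, fewer cells of a type and less RNA per cell cannot be told apart.

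The bases upstream of the start were read for the members whose differences stood at the ends of the list, for Ndufv2 and for Sdha. They come from RefSeq promoter windows of 300 bases (250 before and 50 after the start, build GRCm38.p6), which were found for 66 of the 81 members. The 150 bases before the start are shown 5′ to 3′ on the strand of the gene, which is the minus strand for all 4. Capitals mark an NRF1 or ETS motif. NRF1 and the ETS-family factor NRF2 (GABP) are known regulators of respiratory chain genes. Uqcr11, the member with the largest difference downward, is shown from chr10:80406822-80406971. Uqcrfs1, the member with the largest difference upward with palmitic acid, is shown from chr13:30545317-30545466. Ndufv2 is shown from chr17:66101560-66101709, as the complex I gene with a large difference among the core subunits, and Sdha from chr13:74350241-74350390, as a gene with 3 NRF1 matches.
Uqcr11: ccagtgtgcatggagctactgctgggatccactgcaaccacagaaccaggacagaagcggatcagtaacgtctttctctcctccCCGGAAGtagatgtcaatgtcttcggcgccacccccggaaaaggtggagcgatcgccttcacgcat
Uqcrfs1: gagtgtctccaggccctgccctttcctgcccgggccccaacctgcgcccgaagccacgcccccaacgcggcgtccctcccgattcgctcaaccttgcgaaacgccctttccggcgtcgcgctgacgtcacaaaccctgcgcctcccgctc
Ndufv2: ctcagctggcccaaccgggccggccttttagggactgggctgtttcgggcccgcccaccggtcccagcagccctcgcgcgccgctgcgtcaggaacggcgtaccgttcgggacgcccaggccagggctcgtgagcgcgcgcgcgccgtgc
Sdha: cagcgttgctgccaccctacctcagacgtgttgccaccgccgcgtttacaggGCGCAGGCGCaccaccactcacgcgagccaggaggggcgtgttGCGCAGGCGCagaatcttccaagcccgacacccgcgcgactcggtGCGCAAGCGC

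Positions are counted from the start, with bases before it negative, and each is the first base of a match. Uqcr11 held an ETS match at -66. Sdha held NRF1 matches at -98, -55 and -10. Uqcrfs1 and Ndufv2 held no match of the 4 motifs searched, which says only that these letters are not in their windows. The motifs were NRF1 (GCGC, any base, then TGCGC), ETS (CCGGAAG), YY1 (AAGATGGC) and ERR (TCAAGGTCA), on both strands. The ETS and YY1 motifs can share the letters AAG, but no match of 1 motif overlapped a match of another in the members.

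Of the 66 members with a window 63 were kept, and the shares are given over these. An NRF1 match was in 16 (25.4%), beside 11.3% of 8916 kept genes with a window. ETS matches were in 17 members (27%), beside 19.9%. YY1 matches were in 10 (15.9%), beside 5.43%, and ERR matches in 2 (3.17%), beside 0.336%. Any of the 4 was found in 37 kept members (58.7%), beside 32.3% of kept genes. Over all 66 members the share was 56.1%, beside 16.8% of all 27025 genes with a window. Those 27025 were not filtered by brightness, while 63 of the 66 members were kept, so that the 32.3% is the closer background. The median palmitic acid difference was -0.06 over kept members with an NRF1 match and -0.14 over those without. For ETS it was -0.14 with and -0.11 without. A match is a description of the sequence, and binding was not measured.

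For every complex and role, a count below 0 stands against 49.9% of all kept genes for palmitic, 44.6% for oleic and 34.8% for linoleic acid. Complex I takes electrons from NADH. Of its 34 kept members, 31 lay below 0 with palmitic acid, with a median of -0.13, and 27 with linoleic acid, with a median of -0.07. With oleic acid 17 lay below and 17 above. The 6 core subunits, which hold the iron-sulfur clusters and flavin or line the path of electrons, were mixed with palmitic acid: 4 lay below 0 and 2 above, with a median of -0.07. Of the 27 accessory subunits 26 lay below 0, with a median of -0.15. The division into core and accessory follows textbook roles, and the groups were written after the values had been seen.

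Ndufv2, an iron-sulfur core subunit at the NADH-oxidising tip, lay at 11.46 in the control, 11.17 under palmitic, 11.43 under oleic and 11.34 under linoleic acid. Palmitic acid was the low array and the control and oleic acid were close to each other. The palmitic acid difference of -0.29 corresponds to a ratio of 0.817, and the linoleic acid difference was -0.12. Ndufv2 was the only core subunit of complex I at least 1.2-fold lower with palmitic acid. Its partner at the tip, Ndufv1, which binds NADH and flavin, lay at 9.55 in the control, 9.59 under palmitic, 9.44 under oleic and 9.61 under linoleic acid. For Ndufv1 the oleic acid array was the lowest, unlike for Ndufv2. Ndufs1, the large iron-sulfur subunit, lay at 9.53 in the control, 9.61 under palmitic, 9.45 under oleic and 9.40 under linoleic acid. It was the highest complex I member with palmitic acid, at 0.09, and the palmitic minus linoleic acid difference was 0.21. Ndufs3, a core subunit of the ubiquinone module, lay at -0.06 with palmitic acid and 0.09 with linoleic acid.

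Among the accessory subunits Ndufc1 had the largest difference. It lay at 10.31 in the control, 9.96 under palmitic, 10.21 under oleic and 10.09 under linoleic acid, so that all 3 fatty acid arrays were below the control. The palmitic acid difference was -0.35, and its 2 probes gave -0.36 and -0.34. Ndufb10 lay at 7.79 in the control, 7.52 under palmitic, 7.87 under oleic and 7.78 under linoleic acid. Only the palmitic acid array stood apart for this gene, at -0.27 from the control and -0.35 from oleic acid. Ndufb9 lay at 10.75 in the control, 10.49 under palmitic, 10.72 under oleic and 10.65 under linoleic acid. With Ndufv2, Ndufc1, Ndufb9 and Ndufb10, complex I held 4 of the 5 members at least 1.2-fold lower with palmitic acid. It also holds 35 of all 81 members. Ndufb9 (-0.266) and Ndufb10 (-0.268) lay close to the 1.2-fold cut, which is 0.263 in log2. Ndufb3 had another pattern, with 8.14 in the control, 7.95 under palmitic, 7.92 under oleic and 8.10 under linoleic acid. Here the palmitic and oleic acid arrays were low together. Ndufa5, the single accessory subunit above 0 with palmitic acid, lay at 0.08 and was the dimmest kept member of complex I. Ndufc2 was the brightest, at 12.43 in the control and 12.28 with palmitic acid. Ndufs5 had the highest oleic acid difference of the complex, 0.11.

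Ndufa4, which the rule puts in complex I by its symbol and which is now counted as a subunit of complex IV, lay at 10.04 in the control, 9.88 under palmitic, 10.02 under oleic and 10.01 under linoleic acid. It was low with palmitic acid alone, at -0.16. Its paralog Ndufa4l2, known as a hypoxia-induced gene, was below the brightness filter on every array, with 6.87 in the control and 6.79 with palmitic acid.

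**Figure D2:**
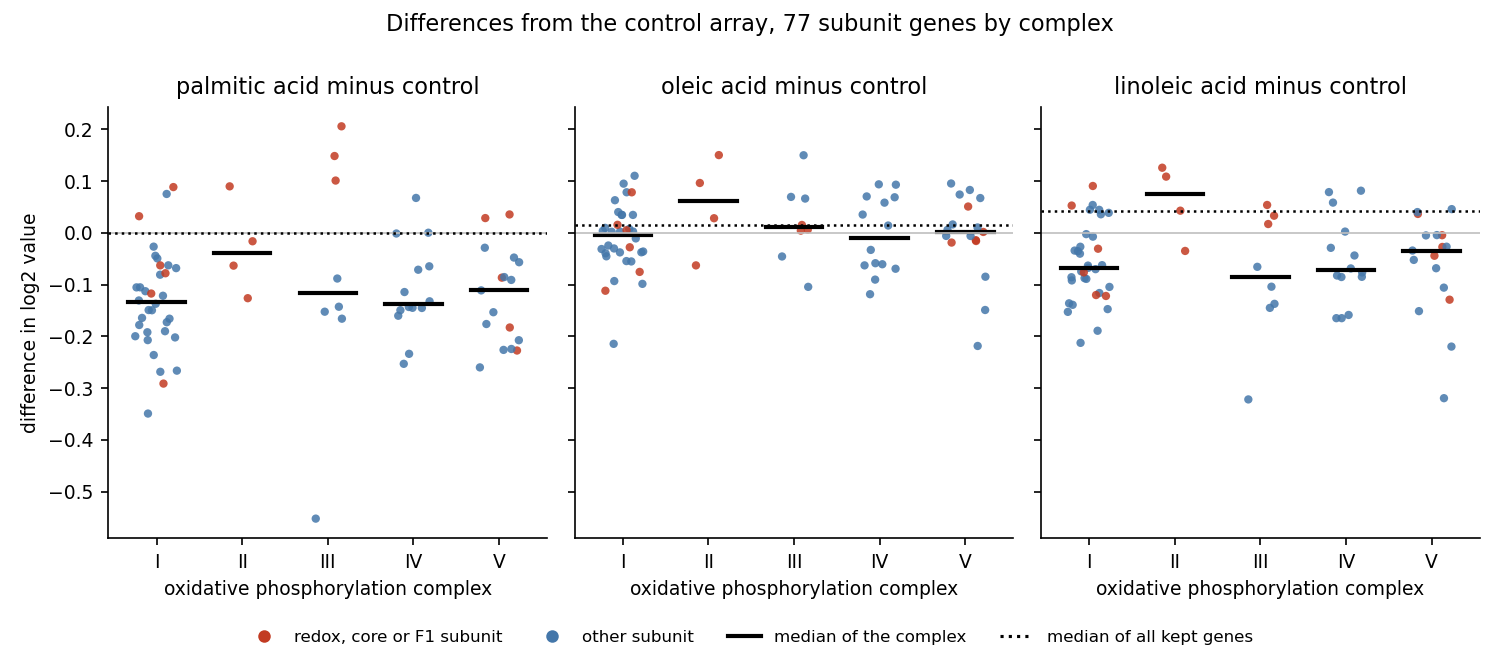
Difference in log2 value from the control array (vertical axis) for each of the 77 kept subunit genes, by complex (horizontal axis), with a panel for each fatty acid. Red points are the redox, core and F1 subunits and every complex II gene. Blue points are the others, black bars the medians and the dotted line the median of all kept genes. With palmitic acid the medians of complexes I, III, IV and V lie between -0.14 and -0.11 and that of complex II at -0.04, while with oleic acid all lie between -0.0094 and 0.06.

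Complex II, succinate dehydrogenase, is an enzyme of both the citric acid cycle and the respiratory chain, and it has no mitochondrially encoded subunit. Its 4 genes showed no common pattern. Sdha, the flavin subunit that oxidises succinate, lay at 10.78 in the control, 10.87 under palmitic, 10.71 under oleic and 10.90 under linoleic acid. Linoleic and palmitic acid were the high arrays, and linoleic minus oleic acid was 0.19. Sdhb, the iron-sulfur subunit, lay at 10.41 in the control, 10.28 under palmitic, 10.44 under oleic and 10.45 under linoleic acid. It was low in the palmitic acid array, at -0.13. The membrane anchor Sdhc lay at 11.05 in the control, 10.99 under palmitic, 11.15 under oleic and 11.16 under linoleic acid. The other anchor, Sdhd, lay at 10.43 in the control, 10.42 under palmitic, 10.59 under oleic and 10.40 under linoleic acid. Sdhd was high in the oleic acid array alone, and Sdhc in both unsaturated acids. The medians of the complex were -0.04 under palmitic, 0.06 under oleic and 0.08 under linoleic acid.

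Complex III passes electrons from ubiquinol to cytochrome c, and the 8 genes that the rule found for it divided by role. Of these 8, the 3 largest lay above the control with palmitic acid, and the 5 small ones below. Cyc1, the gene of cytochrome c1 in this complex, is no member by its symbol and lay at 0.06 with palmitic acid. Uqcrfs1, the Rieske iron-sulfur protein, lay at 8.51 in the control, 8.72 under palmitic, 8.52 under oleic and 8.54 under linoleic acid. The palmitic acid array stood above the other 3, by 0.21 over the control, the largest difference upward of any member. The core protein Uqcrc1 lay at 10.78 in the control, 10.93 under palmitic, 10.79 under oleic and 10.84 under linoleic acid. The core protein Uqcrc2 lay at 11.52 in the control, 11.62 with palmitic acid and 11.54 with each of the others. Palmitic acid was the highest array for all 3 of these genes, at differences of 0.21, 0.15 and 0.10.

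Uqcr11, a small membrane subunit of the complex, had the largest difference of all members. It lay at 11.03 in the control, 10.47 under palmitic, 10.98 under oleic and 10.70 under linoleic acid. The control and oleic acid arrays were close, palmitic acid was the lowest and linoleic acid lay between. The palmitic acid difference of -0.55 is a ratio of 0.682, and its 2 probes gave -0.56 and -0.55. The linoleic acid difference was -0.32, with -0.38 and -0.26 for its probes. Uqcr10, another small subunit, lay at 9.07 in the control, 8.98 under palmitic, 9.22 under oleic and 8.92 under linoleic acid. Its high array was oleic acid, so that linoleic minus oleic acid was -0.29. Uqcrb, a small subunit near the ubiquinone site and the brightest of the complex, lay at 12.14 in the control, 11.97 under palmitic, 12.03 under oleic and 12.00 under linoleic acid. Uqcrh, the hinge protein, lay at -0.15 with palmitic acid and Uqcrq at -0.14. All 5 small subunits also lay below the control with linoleic acid, with a median of -0.14.

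**Figure D3:**
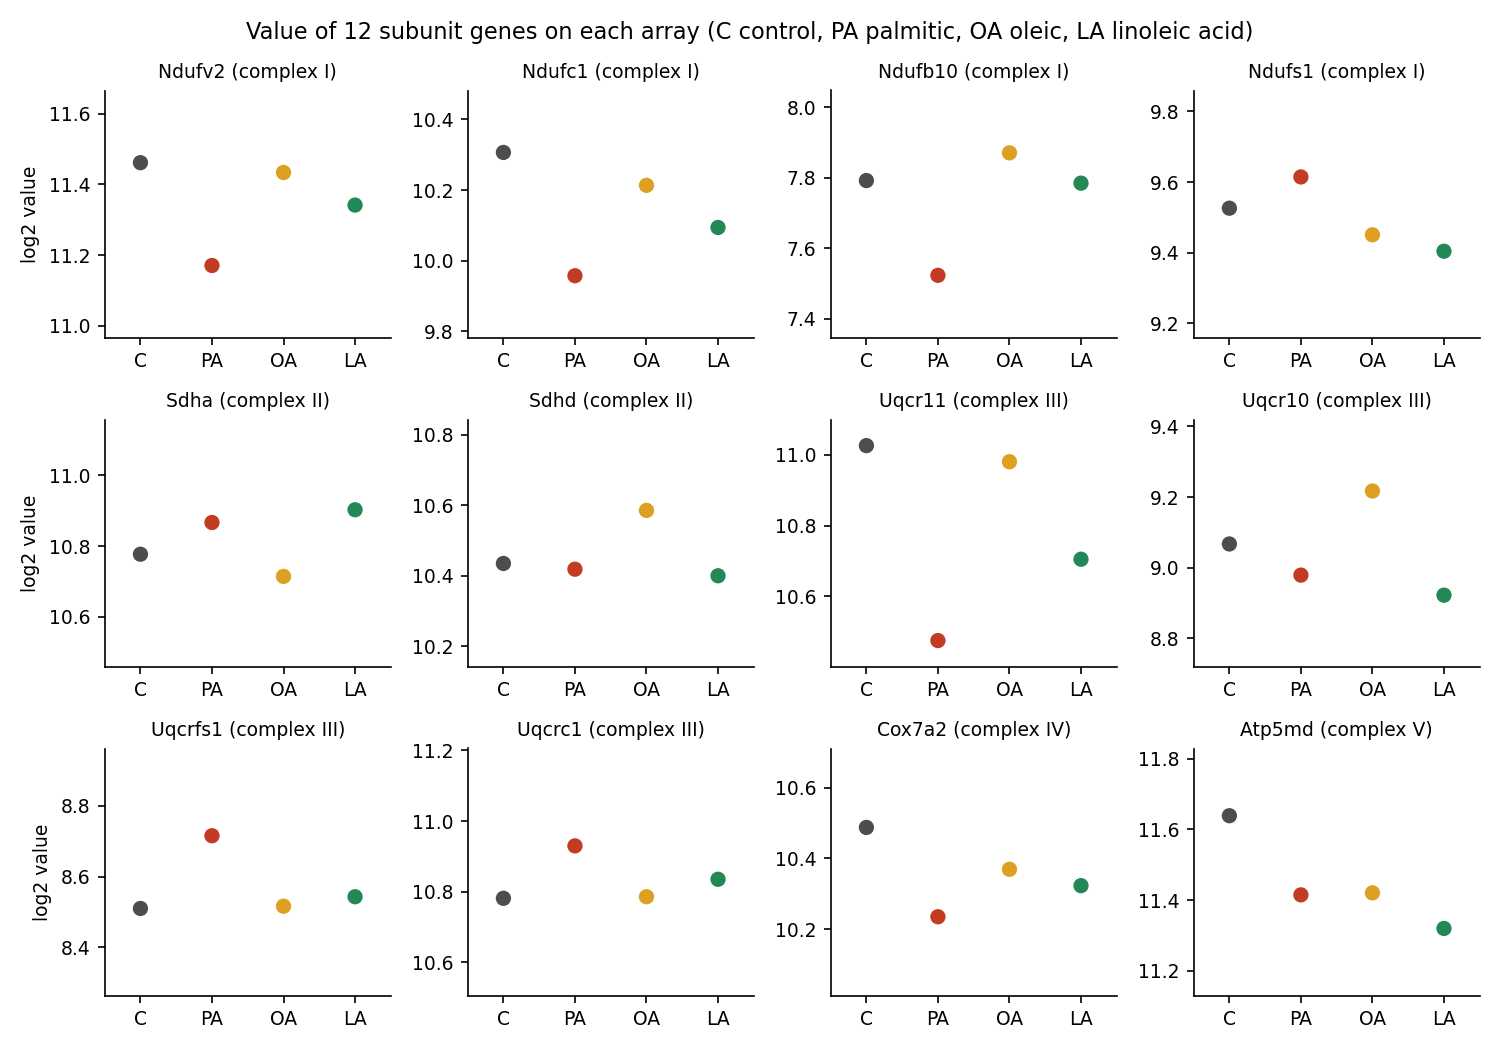
Log2 value (vertical axis, of the same height in log2 units in every panel) of 12 subunit genes on each of the 4 arrays, with 1 point per array. Palmitic acid is the lowest array for Ndufv2, Ndufc1, Ndufb10, Uqcr11 and Cox7a2 and the highest for Ndufs1, Uqcrfs1 and Uqcrc1, and Sdhd is highest with oleic acid.

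Complex IV, cytochrome c oxidase, reduces oxygen, and its catalytic core is encoded in mitochondrial DNA. Its nuclear subunits include pairs of isoforms for different tissues. Of the 14 kept members 12 lay below 0 with palmitic acid, with a median of -0.14. Of the 9 ubiquitous subunits 8 did. Cox7a2, the widely expressed form of subunit VIIa, lay at 10.49 in the control, 10.23 under palmitic, 10.37 under oleic and 10.32 under linoleic acid. All 3 fatty acid arrays were below the control, palmitic acid by -0.25. Cox7b lay at 12.12 in the control, 11.88 under palmitic, 12.06 under oleic and 11.95 under linoleic acid. Cox4i1, the ubiquitous form of the regulatory subunit IV, lay at 11.09 in the control, 10.96 under palmitic, 11.19 under oleic and 11.02 under linoleic acid. It was thus high with oleic acid and low with palmitic acid, at a difference of -0.23 between them. Cox6a1 lay at 11.61 in the control, 11.47 under palmitic, 11.71 under oleic and 11.62 under linoleic acid. Cox6b1 lay at -0.15 with palmitic acid, Cox6c at -0.11 and Cox8a at -0.07. Cox5a, which binds to subunit IV on the matrix side, was the exception, at 10.86 in both the control and palmitic acid arrays, 10.93 with oleic acid and 10.94 with linoleic acid. Cox6c was the brightest member of all, at 13.08 in the control.

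Of the 7 isoforms known from other tissues, 4 passed the filter, and their control values were 7.18 for Cox4i2, the lung and hypoxia form, 8.49 for Cox6a2 and 7.60 for Cox7a1, forms of heart and muscle, and 7.62 for Cox8c, a testis form. Cox6b2, a testis form, lay at 6.80 in the control, Cox8b, a form of heart and muscle, at 6.68, and Cox7b2 at 5.03. Cox6a2 was thus the brightest of the 7, and the others lay nearer the filter level of 7.09 or below it. Cox4i2 lay at 7.18 in the control and under palmitic, 7.21 under oleic and 7.26 under linoleic acid. Cox7a2l is known as a factor that can join complexes III and IV into supercomplexes, which was not measured in these cells. It lay at 8.47 in the control, 8.54 under palmitic, 8.41 under oleic and 8.31 under linoleic acid. Its palmitic minus linoleic acid difference of 0.23 was the largest upward of any member in that comparison. Its 2 probes disagreed in direction with oleic acid, at -0.15 and 0.03.

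Complex V, ATP synthase, has a catalytic F1 head, a membrane ring of subunit c, a peripheral stalk and several small membrane subunits. Of its 17 genes 15 lay below 0 with palmitic acid, with a median of -0.11. The symbols are the older Atp5 names of the annotation. In the F1 head the differences with palmitic acid ran from -0.23 to 0.04. Atp5b, the catalytic beta subunit, lay at 12.97 in the control, 13.01 under palmitic, 12.96 under oleic and 12.97 under linoleic acid. Its 4 values were within 0.05 of each other. Atp5e, the epsilon subunit and the dimmest of the complex, lay at 9.07 in the control, 8.84 under palmitic, 9.07 under oleic and 8.94 under linoleic acid. Palmitic acid was low for epsilon and not for beta. Atp5a1, the alpha subunit, lay at 0.03 with palmitic acid and Atp5c1, gamma, at -0.18.

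Subunit c is encoded by 3 genes with the same mature protein. Atp5g1 lay at 11.81 in the control, 11.64 under palmitic, 11.83 under oleic and 11.66 under linoleic acid. Atp5g2 lay at 12.35 in the control, 12.30 under palmitic, 12.41 under oleic and 12.32 under linoleic acid. Atp5g3 lay at 11.68 in the control, 11.65 under palmitic, 11.78 under oleic and 11.72 under linoleic acid. Of these, Atp5g1 had the larger differences, at -0.18 with palmitic and -0.15 with linoleic acid, and all 3 were highest with oleic acid.

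The 5 small membrane subunits had the lowest median of any role with palmitic acid, -0.22, and all 5 lay below the control. Atp5md, a small subunit known from the dimer of the enzyme, lay at 11.64 in the control, 11.41 under palmitic, 11.42 under oleic and 11.32 under linoleic acid. It was the control that stood apart for this gene, above the 3 fatty acid arrays. Atp5mpl lay at 10.20 in the control, 9.94 under palmitic, 10.20 under oleic and 10.17 under linoleic acid. Atp5j2, subunit f, lay at 11.46 in the control, 11.24 under palmitic, 11.55 under oleic and 11.39 under linoleic acid. For both of these genes palmitic acid was the low array, and Atp5j2 differed by -0.31 between palmitic and oleic acid. In the peripheral stalk all 4 genes lay below the control with palmitic acid, with a median of -0.13. Its lowest member, Atp5h (subunit d), lay at 10.94 in the control, 10.74 under palmitic, 10.80 under oleic and 10.72 under linoleic acid, so that again the control was the high array. Atpif1, the inhibitor protein of ATP synthase, is no member by its symbol and lay at -0.18 under palmitic, -0.05 under oleic and -0.04 under linoleic acid.

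**Figure D4:**
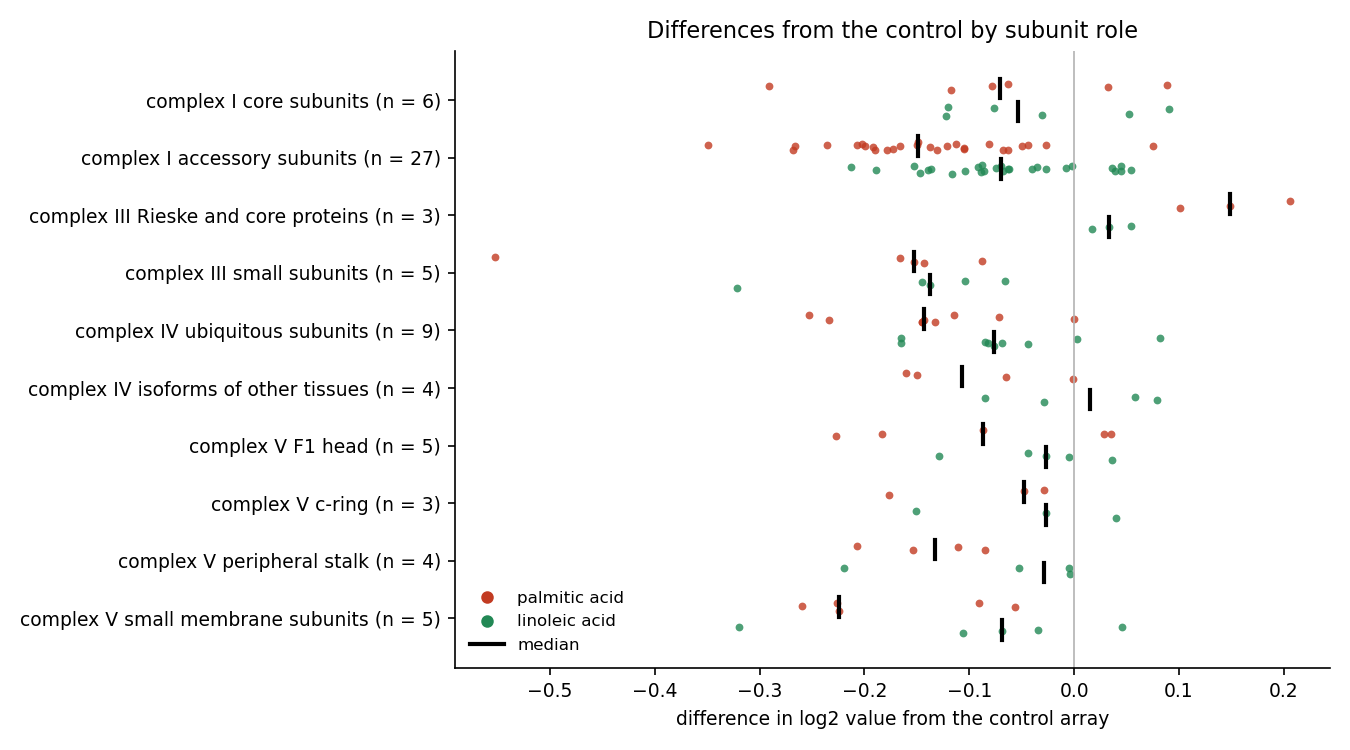
Difference in log2 value from the control array (horizontal axis) for the kept genes of each subunit role (rows, with the number of genes), with palmitic acid in red, linoleic acid in green and medians as black bars. The 3 Rieske and core genes of complex III are the only group wholly above 0 with palmitic acid (median 0.15), and the small membrane subunits of complex V have the lowest median (-0.22).

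Across complexes, a group of 18 genes had a median of -0.04 with palmitic acid, with 10 below 0. It held the core subunits of complex I, every complex II gene, the Rieske and core proteins of complex III and the F1 head. A group of 44 genes held the accessory subunits of complex I, the small ones of complex III and complex V outside the F1 head. Its complex V part took in the c-ring and the peripheral stalk as well as the small membrane subunits. The median of this group was -0.15, with 43 below 0. With linoleic acid the medians were 0.0063, with 9 below 0, and -0.07, with 37 below 0. These groups were also drawn up after the values had been seen, so that they are a description with no test.

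The fatty acids were given at the same concentration and for the same time, and were compared directly in 3 pairs. No test or interval can be had for any of them. Palmitic and oleic acid differ in chain length and in 1 double bond. Between these arrays 62 members lay below 0, with a median of -0.13 beside -0.02 for all kept genes, against a background of 54.1% below 0. Those at least 1.2-fold lower with palmitic acid were 4, namely Uqcr11 (-0.51), Ndufb10 (-0.35), Atp5j2 (-0.31) and Ndufv2 (-0.26), beside a background of 11.4%, and 0 were higher, beside 13%. With the quantile normalisation repeated, 15 members (19.5%) were lower by 1.2-fold, beside 15.4% of all kept genes. The highest were Uqcrfs1 (0.20), Ndufs1 (0.16) and Sdha (0.15).

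Between palmitic and linoleic acid the median was -0.06, beside -0.03 for all kept genes. Members below 0 numbered 61, against 57.5% of all kept genes, and 0 members passed 1.2-fold, beside 8.41% higher and 10.8% lower. The lowest were Ndufb10 (-0.26), Uqcr11 (-0.23) and Atp5mpl (-0.23). Linoleic acid has 1 double bond more than oleic acid, in a chain equally long. Their difference, taken as linoleic minus oleic acid, had a median of -0.07, beside 0.02, with 55 members below 0 against a background of 44.7%. Uqcr10 (-0.29) and Uqcr11 (-0.28) were at least 1.2-fold lower with linoleic acid, beside 4.16% of kept genes, and 0 members were higher, beside 7.14%. Sdha (0.19), Ndufb3 (0.17) and Ndufv1 (0.16) were the highest. With each array centred on its median, 69 members (89.6%) lay below 0 between linoleic and oleic acid, beside 60.4% of all kept genes. Between palmitic and linoleic acid 48 (62.3%) then did, beside 46.8%. With the quantile normalisation repeated, 67 (87%) lay below 0 between linoleic acid and the control, beside 51.1%. Between linoleic and oleic acid 67 (87%) did so too, beside 58.4%. The share of all kept genes thus moved with the scaling as well.

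**Figure D5:**
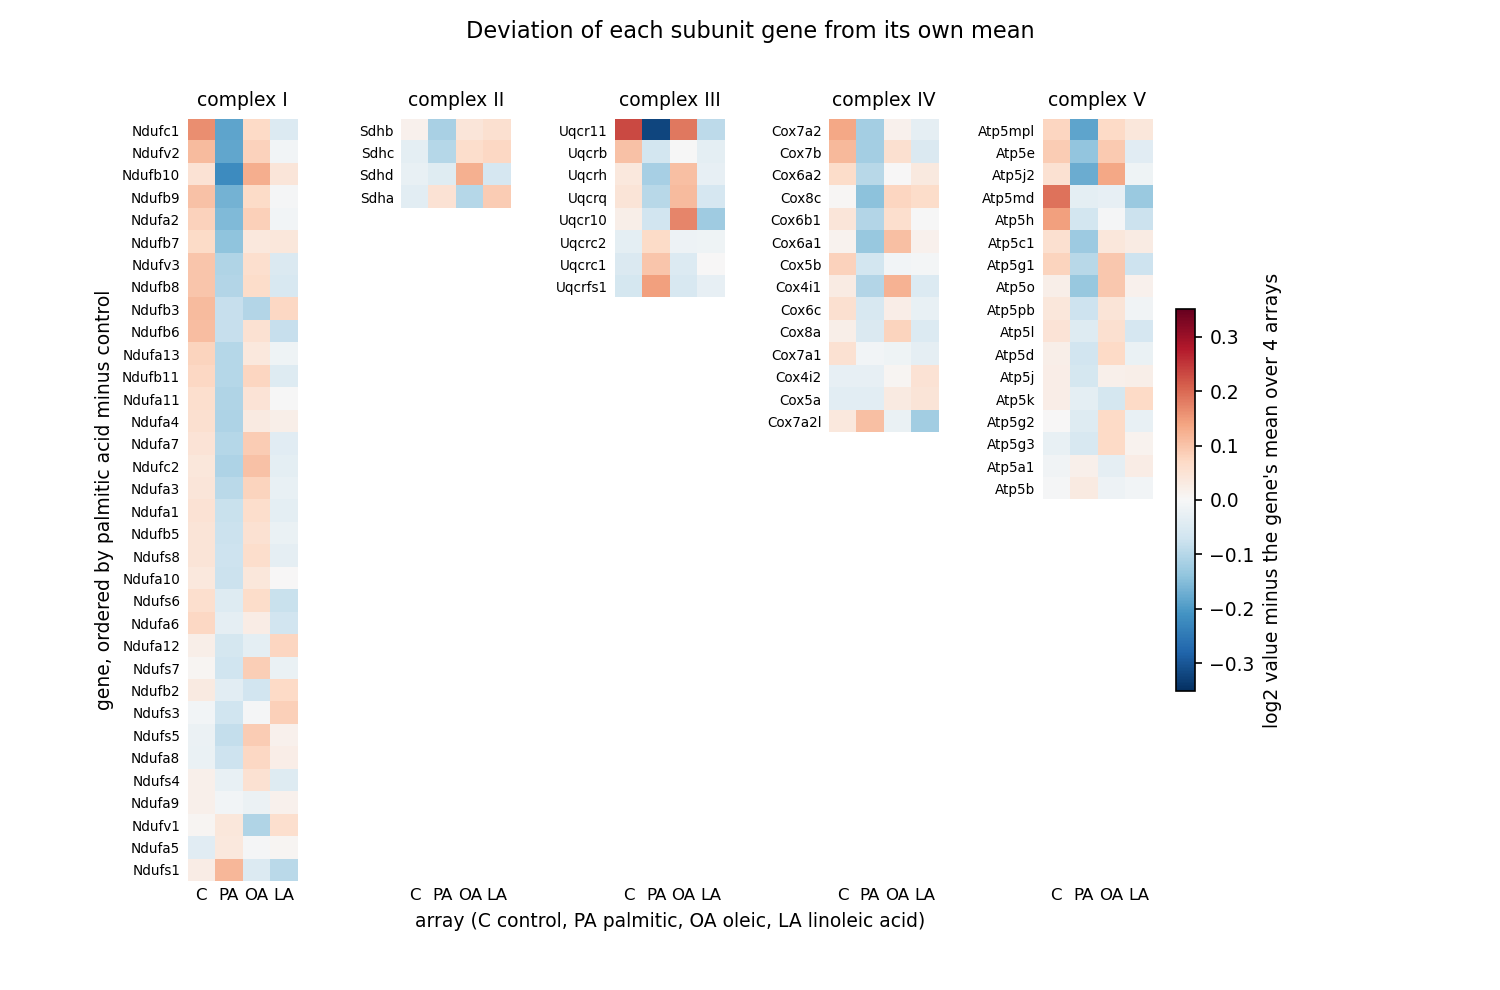
Log2 value minus the gene's own mean over the 4 arrays (colour, red above and blue below) for the 77 kept subunit genes (rows) on each array (columns), by complex. Within each complex the genes are ordered by palmitic acid minus control, which this ordering makes blue at the top of the palmitic acid column. The palmitic acid column holds the lowest value for 53 genes.

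Other genes of the pathway were read from lists written from general knowledge. Of the subunits encoded in mitochondrial DNA only COX2 and ND3 were analysed here. COX2, a catalytic subunit of complex IV, lay at 13.35 in the control, 13.30 under palmitic, 13.26 under oleic and 13.26 under linoleic acid. ND3, a core subunit of complex I, lay at 11.94 in the control, 11.80 under palmitic, 11.77 under oleic and 11.77 under linoleic acid. For both, the control was the high array, and the 3 fatty acid arrays were close to each other, an order also seen for Atp5md and Atp5h. The 38 kept assembly factors, which help build the complexes and are not part of them, had a median of -0.0032 with palmitic acid, with 19 below 0 and 19 above. Among them Cox20, a chaperone of COX2, lay at -0.42, Sdhaf1, which helps insert iron-sulfur clusters into Sdhb, at -0.34 and the mitochondrial RNA-binding protein gene Lrpprc at 0.32.

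The 77 kept genes of mitochondrial ribosomal proteins had a median of -0.06 with palmitic acid, with 44 below 0, beside 49.9% of all kept genes. The difference between this list and the subunit genes was not tested. Genes of the citric acid cycle and the pyruvate dehydrogenase complex, read as 1 list (17 kept), had a median of 0.04, with 7 below 0 on the same background. Electron carriers and other respiratory enzymes (18) had a median of -0.0071, with 10 below 0. Cycs, which encodes cytochrome c, lay at -0.12 with palmitic acid. The list of electron carriers also holds Cyc1 of complex III (0.06) and Ndufab1 of complex I (-0.01), which the symbol rule leaves out. The 6 kept genes of ADP/ATP, phosphate and porin carriers had a median of -0.04.

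Of the 12 kept regulators of mitochondrial biogenesis, 10 lay above 0 with palmitic acid, with a median of 0.08, beside 50.1% of all kept genes. With oleic acid 5 lay above 0 and 7 below, with a median of -0.05, beside 55.3% above. With linoleic acid all 12 lay above, with a median of 0.09, beside 65.2%. Tfam encodes a factor that packages mitochondrial DNA and helps start its transcription. The Tfam values were 8.01 in the control, 8.31 under palmitic, 7.91 under oleic and 8.10 under linoleic acid. The coactivator genes Ppargc1b (0.34) and Pprc1 (0.32) also lay higher with palmitic acid. Those below 0 with palmitic acid were Tfb1m and Esrra. Tfb1m, which methylates the mitochondrial ribosomal RNA, lay at 8.91 in the control, 8.48 under palmitic, 9.11 under oleic and 8.95 under linoleic acid. Esrra, which encodes the estrogen-related receptor alpha, lay at -0.05 with palmitic acid and Nrf1 at 0.03. Ppargc1a was below the brightness filter, at 5.11 in the control.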

How the data were processed

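The authors deposited log2 values from RMA, which corrects background, normalises by quantiles and summarises probes; the name RMA is per the submitters' processing notes. Its version, summary level and build are not stated in the sources used here. RNA (100 ng) was labelled for Affymetrix arrays, per the labels' protocols. The table held 35556 probes, of which 21789 had exactly 1 gene in the platform annotation and gave 19938 genes. Probes of a gene were averaged, as for 16 of the 81 members, whose symbols all matched RefSeq by Entrez ID. The number of columns of an unknown sample was 0. Array medians lay between 7.07 and 7.13, and depth has no counterpart on arrays: their number limits the precision.

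A difference is the second array's log2 value subtracted from the first's. Counts of members past 1.2-fold and 1.5-fold, and above or below 0, are read against the share of all kept genes, which is given at the first count of each comparison. With 1 array per group no test was made. Probes of small gene families can bind related transcripts and pseudogenes, so that such values are uncertain.

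The members, the lists and the genes to name were chosen with earlier results of these data known. Named were Ndufv2, the 4 members at each end of each comparison with the control and 3 at each end between fatty acids, the brightest and dimmest member of each complex, every Sdh gene, the isoform pairs, and set genes of the other lists. The other lists' extremes were not all described. Further members were named after their values were seen, to complete a role or the members past 1.2-fold. Alternatives were 2 scalings, 4 filters, the brightest probe, low values set to the filter level, and membership without isoforms of other tissues. The counting was checked on simulated data. Python 3.11.15, numpy 2.4.6, pandas 2.3.3 and matplotlib 3.10.9 were used.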

Additional observations from a re-analysis of the deposited data

How the results depend on the processing

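The median difference over the members kept its sign under every alternative in all 6 comparisons. The filter on the mean and the setting of low values to the filter level could not change it. All 77 kept members reached that level on every array, so that these alternatives are no check of the member medians. It ranged from -0.17 to -0.11 for palmitic acid minus control, from 0.0004 to 0.02 for oleic acid minus control, from -0.10 to -0.05 for linoleic acid minus control, from -0.18 to -0.12 for palmitic minus oleic acid, from -0.07 to -0.02 for palmitic minus linoleic acid and from -0.12 to -0.06 for linoleic minus oleic acid. The last of these moved by more than 0.05, to -0.12, with arrays centred on their medians. Counts past 1.2-fold moved more. With palmitic acid 5 members (6.49%) were lower by 1.2-fold, beside 8.72% of all kept genes. With arrays centred there were 3 (3.9%), beside 8.14%. The filter at the 90th percentile, which holds fewer genes, gave 2 of 33 (6.06%), beside 8.15%. With the quantile normalisation repeated there were 11 (14.3%), beside 11.8%, and 1 member (1.3%) also passed 1.5-fold, beside 1.65%. Between palmitic and oleic acid that repeat gave 15 lower members (19.5%, beside 15.4%) in place of 4 (5.19%, beside 11.4%). Between palmitic and linoleic acid 1 member (1.3%, beside 11.1%) was 1.2-fold higher with arrays centred and 1 (1.3%, beside 10.9%) lower with the brightest probe. The 2 members (2.6%, beside 1.09%) lower by 1.2-fold with linoleic acid against the control became 1 with the brightest probe (1.3%, beside 1.11%). The 2 against oleic acid (2.6%, beside 4.16%) became 1 with the brightest probe (1.3%, beside 4.15%). They became 1 of 33 with the filter at the 90th percentile (3.03%, beside 2.76%). With arrays centred, the sign turned for between 1 and 14 of the 77 members per comparison, the most between linoleic and oleic acid, and with the quantile normalisation repeated for between 0 and 12. Among the named members and the medians of complexes, 4 values turned and moved by more than 0.05: with the quantile normalisation repeated, Cox8c lay at -0.0033 and Ndufv1 at -0.0009 with linoleic acid; Cox7a2l lay at 0.033 with oleic acid by its brightest probe; and the complex III median between palmitic and oleic acid was 0.012 with the filter at the 90th percentile. Where the number of genes does not show it, the cause was not tested. No paired analysis was possible because each group holds 1 array. Without replicates, nothing here bounds the error of a difference.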

Other observations

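Over the 16 members with several probes, no member had probes of both signs with palmitic acid, and the probes of a gene differed by a median of 0.06 and at most 0.10, for Cox6c. With oleic acid, where the member median was 0.0026, 7 of the 16 had probes of both signs, and with linoleic acid 1. Between fatty acids this held for 1 in palmitic minus oleic acid, 2 in palmitic minus linoleic and 2 in linoleic minus oleic acid. The largest spread was 0.22, for Ndufa11 in linoleic minus oleic acid. The share among all genes with several probes was not taken. Probes of a gene can share sequence and are read on the same array, so that they are no replicates of a condition.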
